A study of Homo sapiens with 12 samples.

Results

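Krüppel-like factors (KLF) are zinc finger transcription factors that bind GC-rich and CACCC elements, and ELF3 is an epithelial member of the ETS family of transcription factors. The RNA levels of 10 of these genes, 9 KLF genes and ELF3, were examined in hepatocellular carcinoma (HCC) cell lines treated with AZD8055, a kinase inhibitor of mTOR, with compound #57, an allosteric inhibitor of the phosphatase SHP2, or with both. The 10 genes were KLF3, KLF5, KLF6, KLF7, KLF9, KLF10, KLF11, KLF13, KLF16 and ELF3, given by symbol and all found among the 11548 genes measured. The list was selected on RNA levels measured in these same libraries, and which comparison between treatments was used is not recorded. Every change of these genes between treatments is therefore given as a description, without a p-value.

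RNA sequencing covered 12 libraries, from 3 cell lines with wild-type genotype in the labels (Hep3B, MHCC97H and Huh7) and 4 treatments (untreated, AZD8055, compound #57, AZD8055 + compound #57). There was 1 library for each line and treatment, so the 3 lines were the only repeats of a treatment, and no repeat culture of a line was available. AZD8055 was used at 100 nM, and compound #57 at 5 µM in the combination, whereas the dose of compound #57 alone is not given in the sources used here. MHCC97H cells were treated for 24 h and Hep3B and Huh7 cells for 48 h, so that line and time cannot be told apart. The libraries held 10667343 to 15968317 reads, and levels are given as scaled reads, that is, reads per 10000000 reads of the library. The defining hepatocyte genes were nearly absent from MHCC97H: the 8 markers examined summed to 1799 to 2524 scaled reads there, against 192614 to 519168 in Hep3B and 302484 to 455619 in Huh7, and TTR had 0 to 3 reads.

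KLF proteins fall into classes by the partners they bind. KLF5, KLF6 and KLF7 act mainly as activators of transcription, KLF3 recruits the corepressor CtBP, and KLF9, KLF10, KLF11, KLF13 and KLF16 bind the corepressor SIN3A. KLF6 is known as an early response gene of the injured liver, and KLF9, KLF10 and KLF11 as genes induced by hormones or TGF-beta. ELF3 takes part in the differentiation of epithelia. mTOR and SHP2 both lie in signalling from receptor tyrosine kinases, with SHP2 acting upstream of RAS and ERK.

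The promoter sequences of KLF6 and KLF16 are shown as a pair, since in all 3 lines the combination was the library with the highest KLF6 and the lowest KLF16 of the 4 treatments, and since both windows held long stretches outside annotated exons. The KLF16 difference between the combination and AZD8055 was within counting error in MHCC97H and Huh7. Sequences were taken from RefSeq (GRCh38.p14), and a window of 250 bases before the start of transcription was found for 8 of the 10 genes. KLF3 and KLF10 had no entry. The windows of KLF7, KLF11 and ELF3 lay inside the GENCODE 44 span of their own gene. Their longest stretches outside annotated exons were 1, 70 and 0 bases, so the motif counts and GC contents below include exon sequence. Bases in exons of any GENCODE 44 transcript were left out, which left 178 bases of the KLF6 window (chr10:3785282-3785459, minus strand) and all 250 of the KLF16 window (chr19:1863580-1863829, minus strand). Capitals mark GC boxes (GGGCGG on either strand) and an E-box (CACGTG), both printed 5′ to 3′ on the strand of the gene.
KLF6: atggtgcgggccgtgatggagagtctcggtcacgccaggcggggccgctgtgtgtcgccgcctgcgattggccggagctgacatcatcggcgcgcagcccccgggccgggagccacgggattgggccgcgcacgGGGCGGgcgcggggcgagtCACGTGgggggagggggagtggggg
KLF16: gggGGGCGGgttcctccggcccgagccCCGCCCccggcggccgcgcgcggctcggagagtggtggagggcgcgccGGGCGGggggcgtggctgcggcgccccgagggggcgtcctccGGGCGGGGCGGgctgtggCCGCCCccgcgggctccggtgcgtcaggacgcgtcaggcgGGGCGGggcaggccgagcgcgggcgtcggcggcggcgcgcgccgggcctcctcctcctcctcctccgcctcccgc
The full window of KLF6 held 2 GC boxes and 1 E-box, and that of KLF16 held 7 GC boxes, some of which overlap each other. The motifs were searched separately, and a GC box occurred in 4 of the 8 windows and in 42.6% of all 35116 promoters of that length. An E-box occurred in 2 of the 8 windows, those of KLF6 and KLF11, and in 6.34% of all promoters. A CACCC box (CCACCC) was found in 2 of 8 windows against 31.3% of all, and an ETS core (CCGGAA) in 0 of 8 against 14.5%. The GC content was 86.4% for KLF16, above 99.8% of promoters, 72.4% for KLF6, 58.4% for ELF3 and 32.4% for KLF9, where the median of all promoters was 58.0%.

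Among untreated cells, the order of the 10 genes differed between lines. Levels were compared between genes as scaled reads per kb of the canonical transcript. In Hep3B, KLF3 was highest at 238 and KLF11 lowest at 8.83, and in Huh7 the same genes stood at the ends, at 219.6 and 17.7. In MHCC97H, ELF3 was highest at 462 and KLF9 lowest at 2.80. KLF7 and KLF11 were among the 3 lowest genes in each line. Most neighbours in the order were further apart than counting error, with these exceptions: KLF16 and KLF13 in Hep3B (ratio 1.10, 95% interval 0.9998 to 1.22), KLF13 and KLF6 in MHCC97H (1.02, 0.944 to 1.10), and KLF10 and KLF6, KLF9 and KLF7, and KLF7 and KLF11 in Huh7, with ratios of 1.05, 1.14 and 1.18. Intervals here and below are exact Clopper-Pearson intervals on the reads of a pair of libraries or genes, and cover counting error only.

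The activator KLF6 (chr10:3775996-3785281, minus strand) was higher with both drugs than in untreated cells in every line. In Hep3B its level, in scaled reads, was 472 in untreated cells, 746 with AZD8055, 1189 with compound #57 and 2413 with both drugs. In MHCC97H it was 862 in untreated cells, 1808 with AZD8055, 889.7 with compound #57 and 2380.3 with both drugs, and in Huh7 421 in untreated cells, 890.4 with AZD8055, 856 with compound #57 and 1937 with both drugs. The combination was thus 5.1-fold, 2.76-fold and 4.59-fold the untreated level in Hep3B, MHCC97H and Huh7. Compound #57 alone left KLF6 in MHCC97H at 1.03-fold (95% interval of the log2 difference -0.079 to 0.17), whereas it was 2.51-fold in Hep3B and 2.03-fold in Huh7. AZD8055 alone gave 1.58-fold to 2.11-fold. In MHCC97H the library median was 0.11 log2 higher with compound #57 than in untreated cells, and relative to that shift the KLF6 difference was -0.064 in place of 0.045.

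KLF7 (chr2:207074137-207173856, minus strand), known for its part in neuronal development, had the largest fitted change of the 10 genes with both drugs. Its level in Hep3B, in scaled reads, was 142 in untreated cells, 307 with AZD8055, 242 with compound #57 and 629 with both drugs. In MHCC97H the levels were 96.0 in untreated cells, 356 with AZD8055, 193 with compound #57 and 693 with both drugs, and in Huh7 175 in untreated cells, 666 with AZD8055, 335 with compound #57 and 972 with both drugs. All 9 treated libraries lay above the untreated library of their line, and the combination was 4.42-fold to 7.16-fold the untreated level. KLF7 was the only member at least 2-fold higher with AZD8055 in all 3 lines, which 0.693% of all genes were.

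KLF5 (chr13:73054976-73077541, plus strand), an activator linked to epithelial proliferation, did not keep one direction. In Hep3B its level, in scaled reads, was 226 in untreated cells, 241 with AZD8055, 141 with compound #57 and 133 with both drugs, and in Huh7 656 in untreated cells, 463 with AZD8055, 574 with compound #57 and 443 with both drugs. In MHCC97H it was 929.7 in untreated cells, 1091 with AZD8055, 1026 with compound #57 and 1557 with both drugs. With both drugs KLF5 was thus below untreated cells in Hep3B (0.59-fold) and Huh7 (0.675-fold) and above them in MHCC97H (1.67-fold), with all 3 counting intervals clear of no change. Opposite changes in 2 lines beyond counting error occurred for KLF5, KLF9 and KLF10 with AZD8055 and with the combination against untreated cells, as for 13.6% and 17.4% of all genes. With compound #57 and with the combination against AZD8055 they occurred for KLF5, as for 13.2% and 21.5% of all genes.

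Of the SIN3A-binding genes, KLF11 (chr2:10042849-10054836, plus strand), which is induced by TGF-beta, had the largest differences between the combination and untreated cells. In Hep3B its level, in scaled reads, was 35.6 in untreated cells, 71.9 with AZD8055, 122 with compound #57 and 216 with both drugs, which rested on 38 to 267 reads. In MHCC97H it was 82.9 in untreated cells, 112 with AZD8055, 133 with compound #57 and 207 with both drugs, and in Huh7 71.4 in untreated cells, 105 with AZD8055, 158 with compound #57 and 289 with both drugs. The order untreated, AZD8055, compound #57, combination held in every line, and the combination was 5.93-fold, 2.48-fold and 4.01-fold the untreated level in Hep3B, MHCC97H and Huh7. KLF11 has an overlapping gene on the opposite strand, as do KLF3 and KLF16, and whether the counting used strand is not given in the sources used here.

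KLF10 (chr8:102648784-102655725, minus strand), the TGF-beta inducible early gene, followed AZD8055 in a pair of lines. In Hep3B it was, in scaled reads, 412 in untreated cells, 706 with AZD8055, 318 with compound #57 and 746 with both drugs, and in Huh7 282 in untreated cells, 723 with AZD8055, 307 with compound #57 and 804 with both drugs. In MHCC97H, where it started highest, it was 1063 in untreated cells, 863 with AZD8055, 763 with compound #57 and 929 with both drugs. The AZD8055-treated library was therefore 1.71-fold the untreated in Hep3B and 2.56-fold in Huh7 but 0.813-fold in MHCC97H. Adding compound #57 to AZD8055 gave KLF10 differences of only 1.06-fold to 1.11-fold.

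KLF16 (chr19:1852399-1863579, minus strand) was the only member that was lowest with both drugs and highest in untreated cells in all 3 lines. The share of all genes with this order was not counted. Its level in Hep3B, in scaled reads, was 559 in untreated cells, 504 with AZD8055, 468 with compound #57 and 445 with both drugs. In MHCC97H it was 391 in untreated cells, 338 with AZD8055, 333 with compound #57 and 302 with both drugs, and in Huh7 204 in untreated cells, 163 with AZD8055, 157 with compound #57 and 144 with both drugs. The differences were small, with the combination at 0.707-fold to 0.798-fold the untreated level, and all 9 treated libraries lay below the untreated library of their line. For AZD8055 in Hep3B this was within counting error, at a log2 difference of -0.147 (counting interval -0.312 to 0.0171).

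KLF9 (chr9:70384604-70414657, minus strand), a gene induced by glucocorticoid and thyroid hormones, was scarce in MHCC97H, with 15 to 38 reads per library. Its level there, in scaled reads, was 14.6 in untreated cells, 26.7 with AZD8055, 13.2 with compound #57 and 17.0 with both drugs. In Hep3B it was 124 in untreated cells, 91.6 with AZD8055, 111 with compound #57 and 81.8 with both drugs, and in Huh7 124 in untreated cells, 207 with AZD8055, 156 with compound #57 and 157 with both drugs. With AZD8055 KLF9 was thus 0.742-fold the untreated level in Hep3B and 1.66-fold in Huh7.

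KLF13 (chr15:31326835-31435665, plus strand), a regulator of lymphocyte chemokine genes, differed little. Its level in Hep3B, in scaled reads, was 1194 in untreated cells, 1275 with AZD8055, 1177 with compound #57 and 1359 with both drugs. In MHCC97H it was 1309 in untreated cells, 1785 with AZD8055, 1237 with compound #57 and 1765 with both drugs, and in Huh7 899.9 in untreated cells, 831 with AZD8055, 998 with compound #57 and 1079 with both drugs. The combination was 1.14-fold to 1.35-fold the untreated level.

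KLF3 (chr4:38664197-38701517, plus strand), the CtBP-binding repressor, differed mainly in MHCC97H. Its level there, in scaled reads, was 633 in untreated cells, 1027 with AZD8055, 796 with compound #57 and 1451 with both drugs, a 2.29-fold difference between the combination and untreated cells. In Hep3B it was 1334 in untreated cells, 1368 with AZD8055, 1376 with compound #57 and 1582 with both drugs, and in Huh7 1229 in untreated cells, 1288 with AZD8055, 1363 with compound #57 and 1364 with both drugs. The combination was 1.19-fold and 1.11-fold the untreated level in these lines, and the highest library of each, although in Huh7 it differed from the library with compound #57 by less than counting error.

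ELF3 (chr1:202007945-202017183, plus strand) differed more between lines than between treatments. In MHCC97H its level, in scaled reads, was 1434 in untreated cells, 2109 with AZD8055, 2237 with compound #57 and 4175 with both drugs. In Hep3B it was 275 in untreated cells, 473 with AZD8055, 649 with compound #57 and 816 with both drugs, and in Huh7 124 in untreated cells, 182 with AZD8055, 231 with compound #57 and 360.4 with both drugs. The untreated level in MHCC97H was thus above every library of the other lines, yet the combination against untreated cells gave nearly the same ratio in all 3, 2.96-fold in Hep3B, 2.91-fold in MHCC97H and 2.89-fold in Huh7. An unnamed gene on the same strand overlaps the exons of ELF3, so reads shared between them are uncertain.

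The treatments were also compared over the 3 lines with limma, fitted to all genes and all 12 libraries with the cell line as a block, and genes were called at a Benjamini-Hochberg adjusted p under 0.05. For AZD8055 against untreated cells, 2 of the 10 genes were called higher (KLF7 and ELF3) and 0 lower, where 2.21% of all genes were called higher and 0.753% lower. For compound #57, 0 were called in either direction, where 0.00866% of all genes were called higher and 0% lower. In that comparison 2501 genes had an unadjusted p under 0.05 by limma, and voom on whole reads called 90, ELF3 among them. For the combination, 5 were called higher (KLF3, KLF6, KLF7, KLF11 and ELF3) and 1 lower (KLF16), where 20.9% and 15.1% of all genes were. These are the values from which the list may have been drawn, so nothing is read from the counts. The same holds for the sizes, ranks and medians of the 10 genes set beside all genes below.

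The fitted log2-fold changes for the combination against untreated cells were 2.48 ± 0.17 (SE of the fit) for KLF7, 2.0 ± 0.27 for KLF6 and 1.96 ± 0.23 for KLF11. ELF3 was at 1.55 ± 0.13 and KLF3 at 0.53 ± 0.19. This SE comes from the residual variance of a gene over all 12 libraries, moderated across genes. It is the same for each comparison and does not measure the spread of a change over the 3 lines. Of the others, KLF10 was at 0.72 ± 0.29, KLF13 at 0.29 ± 0.14, KLF9 at -0.017 ± 0.27, KLF5 at -0.19 ± 0.28 and KLF16 at -0.40 ± 0.11. For AZD8055 alone KLF7 was at 1.64 ± 0.17 and ELF3 at 0.63 ± 0.13, and for compound #57 alone KLF11 was at 1.19 ± 0.23, ELF3 at 0.92 ± 0.13 and KLF7 at 0.90 ± 0.17. Calls rested on each line: without Huh7 only KLF7 was called for the combination, without Hep3B KLF3 and KLF16 were no longer called, and without MHCC97H these 2 were lost and KLF10 was gained. KLF3 and KLF16 were also not called when only the libraries compared were fitted. For AZD8055, leaving out Hep3B or Huh7 left 0 members called, and leaving out MHCC97H left KLF7. Leaving out MHCC97H gave 3 calls for compound #57 (KLF6, KLF11 and ELF3).

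By size, 4 of the 10 genes (KLF6, KLF7, KLF11 and ELF3) were at least 2-fold higher with the combination than in untreated cells in all 3 lines, as were 3.05% of all genes. With compound #57 alone 0 of 10 met this, against 0.572% of all genes. For the combination against AZD8055, 0 of 10 met it, against 0.251% of all genes, and limma called 0% of genes higher and 0% lower. In that comparison 1673 of all genes had an unadjusted p under 0.05 by limma, and voom called 0 as well. KLF6, KLF7, KLF11 and ELF3 were nonetheless above the AZD8055 library in every line, by 1.32-fold to 3.23-fold for KLF6, 1.46-fold to 2.05-fold for KLF7, 1.85-fold to 2.98-fold for KLF11 and 1.72-fold to 1.98-fold for ELF3.

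In rank within a line, KLF3, KLF6, KLF7, KLF11 and ELF3 were highest with both drugs and lowest in untreated cells in all 3 lines, an order that 610 of all genes (5.28%) showed. The median log2 difference of the 10 genes for the combination was 0.92 in Huh7, 0.97 in MHCC97H and 0.55 in Hep3B, beside 0.040, 0.089 and 0.055 for all genes. In the same order of lines, the medians for compound #57 were 0.24, 0.093 and 0.012, beside 0.032, 0.082 and 0.011 for all genes, and those for AZD8055 were 0.55, 0.50 and 0.38, beside -0.016, 0.055 and 0.017.

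The single drugs were set side by side within each line, which gave 30 pairs of libraries over the 10 genes. Compound #57 exceeded AZD8055 beyond counting error in 8 pairs and was below it in 13, where it did so in 32.2% and 29.5% of the pairs of all genes. KLF7 was lower with compound #57 than with AZD8055 in each line, by log2 differences of -0.34 (95% interval -0.55 to -0.13) in Hep3B, -0.88 (95% interval -1.12 to -0.65) in MHCC97H and -0.99 (95% interval -1.16 to -0.82) in Huh7. KLF10 was lower with compound #57 as well, by -1.15 (95% interval -1.31 to -0.99) in Hep3B and -1.23 (95% interval -1.41 to -1.07) in Huh7, but by -0.18 (95% interval -0.30 to -0.051) in MHCC97H. ELF3 stood the other way, above the AZD8055 library by 0.46 (95% interval 0.31 to 0.61) in Hep3B, 0.085 (95% interval 0.0079 to 0.16) in MHCC97H and 0.34 (95% interval 0.089 to 0.60) in Huh7. KLF11 leaned the same way, by 0.75 (95% interval 0.39 to 1.14) in Hep3B and 0.58 (95% interval 0.26 to 0.91) in Huh7, and by 0.26 (95% interval -0.072 to 0.59) in MHCC97H, where the interval held 0. KLF6 split by line, higher with compound #57 in Hep3B, by 0.67 (95% interval 0.56 to 0.79), and lower in MHCC97H, by -1.02 (95% interval -1.13 to -0.92).

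To describe how the drugs combined, the log2-fold change with both drugs was set against the sum of the changes with each. Of the 30 differences, 28 lay within 0.5 log2 of the sum, as did 80.8% of those of all genes. The median over the 10 genes was 0.096 in Huh7, 0.19 in MHCC97H and 0.094 in Hep3B, beside 0.00087, -0.043 and 0.022 for all genes, whose SDs were 0.46, 0.40 and 0.50. KLF6, KLF10, KLF13 and KLF16 were above the sum in all 3 lines, as were 14% of all genes, by 0.100 to 0.36 for KLF6 and by 0.032 to 0.58 for KLF10, and KLF9 was at -0.0013 to -0.72, with 14.6% of all genes below the sum in all 3. KLF13 was at 0.065 to 0.23 and KLF16 at 0.068 to 0.19. Most of these values lie within the SD of all genes. No counting interval is given for these differences of 4 libraries, so the direction of the small ones cannot be told. KLF9 in MHCC97H (-0.48) rested on 15 to 38 reads per library. ELF3 was below the sum in Hep3B (-0.45) and above it in MHCC97H (0.34).

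Levels centred within each line were compared between genes over the 12 libraries, which share treatments and depth, so the correlations only describe the pattern. KLF6, KLF7, KLF11 and ELF3 correlated with each other at Pearson's r of 0.783 to 0.963, the highest being that of KLF11 and ELF3. KLF16 ran against these 4, at -0.947 to -0.876. KLF5 and KLF9 were nearly unrelated to one another (0.01). Among the 9881 genes with at least 25 reads in every library, those most like KLF7 were HECA (0.987), BMF (0.984) and RAD17 (0.984). For KLF11 they were DCTN2 (0.981), FBXW4 (0.972) and SLC8B1 (0.970), for KLF6 TNFAIP1 (0.983), CCNI (0.981) and SNX9 (0.979), and for ELF3 APPL2 (0.988), ARNT (0.983) and SLC8B1 (0.982). SLC8B1 was thus named for both KLF11 and ELF3.

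Relatives outside the list were examined in the same fit, in which 20.9% of all genes were called higher and 15.1% lower for the combination. Of 18 other KLF and SP genes, 9 were measured, and with the combination 2 rose and 0 fell: KLF12, a repressor (0.86 ± 0.30, adjusted p = 0.0481), and SP3 (0.35 ± 0.12, adjusted p = 0.0447). Neither KLF12 nor SP3 was called when the libraries were centred on their medians, and KLF12 was not called with voom on whole reads. KLF2 and KLF4 were higher in Hep3B by 2.90 and 2.37 log2 with the combination but differed by -0.080 and -0.012 in MHCC97H, and neither was called. Of 27 other ETS genes, 15 were measured, of which 2 rose and 4 fell. ETV4 (-2.67 ± 0.65, adjusted p = 0.0131) and ETV5 (-2.49 ± 0.80, adjusted p = 0.0365), known targets of ERK signalling, fell with ETV1 and ELK3, while ETS2 (1.16 ± 0.25, adjusted p = 0.00854) and ETV3 rose. The ELF relatives ELF1, ELF2 and ELF4 were not called, at 0.25 ± 0.12, 0.22 ± 0.14 and 0.31 ± 0.17. Of 15 genes for KLF partners and turnover, SIAH1 rose (0.52 ± 0.12, adjusted p = 0.0104) and HDAC1, a deacetylase of SIN3A complexes, fell (-0.49 ± 0.097, adjusted p = 0.00616). The median fitted changes of these 3 lists were 0.15, 0.13 and -0.022, beside 0.086 for all genes.

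Further lists covered signals that KLF genes are known to respond to. Their counts for the combination stand beside the same 20.9% called higher and 15.1% called lower over all genes. All 8 lists, those of the relatives included, were chosen with earlier results of these data known. Their counts, medians and adjusted p-values are therefore descriptions. Of 15 immediate early genes measured of 19 listed, 9 rose and 1 fell with the combination, with a median of 0.85. ATF3, a stress-induced factor (2.56 ± 0.32, adjusted p = 0.0021), DUSP1, a MAP kinase phosphatase (2.68 ± 0.54, adjusted p = 0.0064), and JUNB (1.80 ± 0.34, adjusted p = 0.00508) rose, whereas EGR1 fell (-3.51 ± 1.09, adjusted p = 0.0324). Of 10 of 12 TGF-beta early targets measured, 5 rose and 0 fell, among them the feedback inhibitors SMAD7 (1.66 ± 0.22, adjusted p = 0.0023) and SKIL (0.89 ± 0.15, adjusted p = 0.00384), and the median was 0.81. With AZD8055 alone, 3 of them (SMAD7, SKIL and TGIF1) rose, along with JUNB among the immediate early genes. Of 10 of 13 glucocorticoid and thyroid hormone response genes, NR3C1 and SGK1 rose and FKBP5 fell (-1.14 ± 0.21, adjusted p = 0.00476). Of 14 of 15 clock genes, CRY2 rose and HLF and NR1D1 fell. Of 11 of 17 epithelial genes, 4 rose and 0 fell: the tight junction genes CLDN1 (1.35 ± 0.21, adjusted p = 0.00311), CLDN7 and OCLN, and KRT8. For AZD8055 CLDN1 rose. With compound #57 alone limma called 0 genes of these 8 lists, where it called 1 of all 11548 genes. The fitted changes in that comparison were -3.25 ± 0.65 for ETV4, -3.02 ± 0.80 for ETV5 and -3.62 ± 1.09 for EGR1. ETV1 was at -2.22 ± 0.38, ELK3 at -0.86 ± 0.20, ATF3 at 1.43 ± 0.32 and JUNB at -0.10 ± 0.34. Genes not called for compound #57 could thus differ as much as with both drugs. Without Huh7 limma called 11 genes in all for the combination, in place of 4154, and without a block for the cell line it called 0, so the calls in these lists rest on that line and on the pairing. Of the 35 calls in the 8 lists for the combination, 1 (ATF3) remained without Huh7, 17 without Hep3B and 23 with only the libraries compared. Of the 5 calls for AZD8055, which called 2.21% of all genes higher, 0 remained without Hep3B, without Huh7 or with only the libraries compared, and 1 (JUNB) remained without MHCC97H.

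Some genes used as markers of other cell types also differed between treatments, which does not show that such cells were present. Of 7 mesenchymal markers, 4 were measured (VIM, ZEB1, CDH2 and FN1), and their summed level was 25072 scaled reads in untreated Hep3B, 40127 with AZD8055, 28358 with compound #57 and 62077 with both drugs. In MHCC97H the sums were 82923, 171584, 84744 and 133453 in the same order, and in Huh7 64946, 139459, 78227 and 101962. VIM, CDH2 and FN1 rose with the combination by the fit over the lines. ZEB1 was not called, and its log2 differences were -0.73 in Hep3B, -0.19 in MHCC97H and -0.048 in Huh7. The sums in MHCC97H and Huh7 mostly follow FN1. In MHCC97H, FN1 had 94410 to 241665 reads per library, against 1548 to 3053 for CDH2 and 63 to 116 for VIM. In Huh7, FN1 had 92014 to 154099 reads and VIM 5180 to 13775. In Hep3B the ranges were closer, 20718 to 41640 for FN1 and 5295 to 28885 for VIM. Of 3 leukocyte markers 0 were measured, of 3 endothelial markers 1, at 4 to 541 scaled reads, and of 3 fibroblast markers 2, with sums of 38 scaled reads in untreated Hep3B and 174 with both drugs, of 9 and 24 in MHCC97H and of 1048 and 1317 in Huh7. Of these, COL1A1 rose with the combination (2.15 ± 0.65, adjusted p = 0.0289 by limma), on 13 to 29 reads per library in MHCC97H. COL1A2 was not called (0.40 ± 0.46). Its log2 differences were 0.96 in Hep3B, 0.85 in MHCC97H, with 0 to 2 reads per library, and -0.60 in Huh7, with 732 to 1528. The part of these markers in the results was not tested, and fewer cells of a state and less RNA per cell cannot be told apart in bulk samples.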

How the data were processed

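RNA from untreated and treated cells was prepared as stranded polyA+ libraries with the TruSeq kit and aligned to hg38 by the authors. The aligner, the counting and the normalization are not given in the sources used here. The authors deposited log2 values for 11548 genes in 12 libraries. In each library 100% of the values (tolerance 0.05 read) were whole reads once scaled to 10000000 reads with 1 added before the log, after 0.001, which the deposited log2 values all carry, was taken off. The recovered totals were 10667343 to 15968317 reads, which set the counting intervals. The genes of the table took 98.6% to 99.2% of these.

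Samples were grouped by the treatment in the labels and paired by cell line, since libraries of a line come from the same cells. Differences over the lines were fitted with limma 3.58.1 (R 4.3.3, lmFit and eBayes with trend, treatment and cell line as terms, 6 residual degrees of freedom), on all genes, and adjusted by Benjamini-Hochberg over the 11548. Within a line, 2 libraries were compared with an exact 95% interval on reads and no test. The fit was tested on simulated data. Levels per kb used the canonical transcripts of GENCODE 44, in hg38 coordinates. The alternatives were another added constant (10), a filter keeping the 75% of genes with the highest mean, libraries centred on their medians, no block, fits of the compared libraries alone, voom on the reads, and leaving out each line.

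The 10 genes and all gene lists were chosen with earlier results of these data known. Named genes were the 10, the measured KLF, SP and ELF relatives, and from the other lists genes called in the fit. Like genes were the 3 with the highest correlation over centred values, given for the 4 genes with the widest range. A second RefSeq start of KLF5 was not used.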

Additional observations from a re-analysis of the deposited data

Results flagged for a closer look

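In 3 of the genes, the log2-fold change took opposite signs in 2 cell lines with both counting intervals clear of 0, as it did for 13.2% to 21.5% of all genes, depending on the comparison. The difference between the lines was not tested, since each line had 1 library per treatment, and exposure time cannot be told apart from MHCC97H.

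KLF5 did so in all 4 comparisons. The largest and the smallest of its changes over the lines were 0.73 apart for AZD8055 against untreated cells, 0.81 apart for compound #57, 1.51 apart for the combination against untreated cells and 1.37 apart for the combination against AZD8055. KLF9 changes were 1.26 apart for AZD8055, between MHCC97H, with 19 and 38 reads, and Hep3B, and 0.93 apart for the combination against untreated cells, between Huh7 and Hep3B, with Hep3B below 0 in both. KLF10 changes were 1.65 apart for AZD8055 and 1.70 apart for the combination against untreated cells, with MHCC97H below 0 and Hep3B and Huh7 above it. The KLF5 and KLF10 values rested on 164 to 1926 and 416 to 1384 reads per library, and the KLF9 values on 15 to 249.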

How the results depend on the processing

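Counts of called genes depended most on the pairing by cell line and on which lines were kept. Without the replicate block, 0 genes and 0 of the 10 were called in each of the 4 comparisons, with 365, 210 and 1268 genes at an unadjusted p under 0.05 for AZD8055, compound #57 and the combination against untreated cells. Fitting only the libraries compared gave 2 genes and 0 of the 10 for AZD8055, 0 genes for compound #57, and 1889 genes and 4 of the 10 for the combination, without KLF3 and KLF16. Leaving out a line gave 0 to 109 genes and 0 to 1 of the 10 for AZD8055, 0 to 778 genes and 0 to 3 of the 10 for compound #57, 11 (without Huh7), 1797 (without Hep3B) and 3778 genes (without MHCC97H) and 1 to 5 of the 10 for the combination against untreated cells, and 0 to 3 genes and 0 of the 10 for the combination against AZD8055. The cause was not tested beyond the fewer samples and residual degrees of freedom of these fits. With voom on whole reads, compound #57 had 90 genes and 1 of the 10. Centring the libraries on their medians put 256 genes higher and 217 lower for AZD8055, in place of 255 and 87, and 1993 higher and 2229 lower for the combination, in place of 2410 and 1744, and KLF3 was then no longer called. The filter to the 75% of genes with the highest mean leaves out KLF9 and KLF11. Over all alternatives, 326 of 352 values of the 10 genes over the lines stayed within 1 SE of the reported value and 26 did not. Within lines, 235 of 240 stayed within their counting interval, and no difference clear of 0 changed sign. All 60 values against the sum of the single drugs stayed within counting error. KLF9 in MHCC97H, with 15 to 38 reads, and KLF11 in untreated Hep3B, with 38, are limited by depth.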
